A study of Mus musculus with 9 samples.

Results

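The NRF2 and glutathione pathway genes described here are 10 of the 22396 genes counted in RNA that was pulled down with FLAG-tagged RIG-I from B16F10 cells, a mouse melanoma line. The 10 genes were Nfe2l2, Gclc, Gclm, Gsr, Txnrd1, Srxn1, Nqo1, Gsta4, Gstm1 and Gm10639 (ENSMUSG00000074179), chosen by name from their levels in these same groups (CPM, a gene's count scaled to the library total), so that their differences between groups are given as a description. No p-value is given for any of them, and how many of them passed a threshold is shown only beside the share of all genes that did. All 9 libraries came from cells that stably carried a lentiviral FLAG-RIG-I and a lentiviral shRNA, selected with puromycin. The shRNA was a control (shCtr) or one of 2 hairpins against Osgep (shOSGEP#1 and shOSGEP#2), with 3 libraries for each shRNA, described as biological replicates from independent experiments. OSGEP carries the catalytic activity of KEOPS, the complex that places the t6A modification on tRNAs, and the pull-down addressed which RNAs RIG-I binds when that enzyme is depleted. No library of unbound or total RNA was analysed here, so a level in the pull-down cannot separate binding to RIG-I from the amount of the RNA in the cell. Likewise, in bulk samples fewer cells with an RNA and less of it in each cell cannot be told apart.

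NRF2, the product of Nfe2l2, is a transcription factor that cells keep scarce through KEAP1, an adaptor that hands it to a ubiquitin ligase. Oxidants and electrophiles disable KEAP1, and NRF2 then accumulates, pairs with small MAF proteins and binds antioxidant response elements in front of its targets. Those targets make glutathione, return oxidised glutathione and thioredoxin to their reduced forms, couple glutathione to reactive compounds, and supply NADPH. Melanocytes and melanoma cells are a setting in which this programme is often studied, because melanin synthesis itself produces oxidants and quinones.

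The letters to which NRF2 and its partners are known to bind were looked for in the RefSeq promoters of the members (GRCm38.p6, from 250 bases before to 50 bases after each annotated start), to show which of these genes carry them close to the start. The core searched was TGACNNNGC, on both strands, with no other motif searched. Stretches that differ from this core by a letter were not counted, such as tgagtcagc in the 250 bases before the Srxn1 start. The tallies hold for this core alone. RefSeq promoters were found for 7 of the 10 members, and 4 of the 7 held the core, Nfe2l2, Gclm, Srxn1 and Txnrd1, the last at 1 of its 3 starts. Counted in the same way, as genes with the core at any annotated start, 14.0% of all genes with a promoter held it (3781 of 27025), as did 17 of 92 other pathway genes listed further on (18.5%). Below, each sequence reads 5′ to 3′ on the strand of the gene, the core or its reverse complement is in capitals, and it is flanked by 10 bases on each side.
Nfe2l2, chr2:75704885-75704913, minus strand, 240 bases upstream of the start: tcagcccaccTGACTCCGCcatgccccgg
Gclm, chr3:122245413-122245441, plus strand, 134 bases upstream: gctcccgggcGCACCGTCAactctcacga
Txnrd1, chr10:82859104-82859132, plus strand, 92 bases upstream: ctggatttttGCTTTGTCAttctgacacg
Srxn1, chr2:152105542-152105570, plus strand, 28 bases downstream: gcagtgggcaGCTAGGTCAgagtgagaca
The 250 bases before the Gclm start, shown whole because the library-to-library pattern of Gclm was the closest to that of Srxn1, lie at chr3:122245307-122245556.
Gclm upstream region: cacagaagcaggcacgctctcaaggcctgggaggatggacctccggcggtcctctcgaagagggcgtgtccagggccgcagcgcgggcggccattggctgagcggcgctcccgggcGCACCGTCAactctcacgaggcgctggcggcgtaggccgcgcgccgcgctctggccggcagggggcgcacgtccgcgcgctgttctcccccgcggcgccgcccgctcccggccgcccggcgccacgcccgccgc
The promoters found for Gstm1, Nqo1 and Gm10639 did not hold these letters within the window.

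Total counts ran from 14914731 to 50224299 in 8 of the libraries and reached 568995 in shOSGEP#2 replicate 2, which detected 4196 genes where the others detected 11733 to 13958. Counts of the shallow library did not follow those of its group: it held 0 counts of Nfe2l2 where the other shOSGEP#2 libraries predicted 63.4, 0 of Gstm1 where 51.1 were predicted, and 97 of Gclc where 33.2 were predicted. Its values are therefore shown apart, and means and fold changes come from the other 8 libraries unless stated. The targeted Osgep had 771, 949 and 649 counts in the shCtr libraries, 130, 58 and 47 with shOSGEP#1, and 2, 0 and 43 with shOSGEP#2, giving log2 fold changes of −3.10 (SE 0.73, adjusted p = 0.0128, edgeR) and −3.84 (SE 0.93, adjusted p = 0.0150), which missed the threshold of 0.01. The 7 melanocyte lineage markers were all detected, with summed levels of 6039 to 8473 CPM in shCtr, 6288 to 7565 CPM in shOSGEP#1 and 2617 to 3374 CPM in both deep shOSGEP#2 libraries. Summed markers of leukocytes, fibroblasts, endothelium and epithelium were each at most 4.52 CPM in every library.

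Srxn1 stood highest of the members in shCtr once levels were divided by exonic length, at 309 CPM per kilobase on average, the 99.3rd percentile of the 14748 genes with counts in shCtr. Txnrd1 followed at 161, Gstm1 at 111, Gsr at 85.8, Gclm at 58.3, Nfe2l2 at 34.1 and Gclc at 20.8 CPM per kilobase. These are averages over libraries that differed. In shCtr replicate 3, Srxn1 was 4.89 times and Txnrd1 1.67 times lower than the mean of replicates 1 and 2. Gm10639 lay at 11.1 CPM per kilobase (68.8th percentile), and Gsta4 and Nqo1 were the lowest, at 0.488 and 0.282 CPM per kilobase (26.7th and 24.0th percentiles). The shCtr pull-downs thus held abundant mRNA for the thiol-reducing enzymes and very little for NQO1, although NQO1 is among the best-known NRF2 targets.

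Nfe2l2 was the only member above shCtr in either OSGEP-depleted group. It measured 133, 126 and 129 CPM in shCtr replicates 1, 2 and 3, 179, 169 and 222 CPM in shOSGEP#1, and 125 and 98.0 CPM in shOSGEP#2 replicates 1 and 3. All 3 shOSGEP#1 libraries lay above all shCtr libraries, whereas both deep shOSGEP#2 libraries lay just below them. The group means were 129 ± 3.89 CPM in shCtr (SD, n = 3), 190.1 ± 28.3 CPM in shOSGEP#1 (SD, n = 3) and 111.5 ± 19.2 CPM in shOSGEP#2 (SD, n = 2). The fitted log2 fold change against shCtr was 0.54 (SE 0.16) for shOSGEP#1 and −0.31 (SE 0.18) for shOSGEP#2, and between the hairpins it was −0.85 (SE 0.18). Relative to the mean, its spread over the shCtr libraries was the narrowest of the 10 members.

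Gclc and Gclm encode the catalytic and the modifier subunit of glutamate-cysteine ligase, the rate-limiting enzyme of glutathione synthesis. Gclm measured 482, 472 and 147 CPM in shCtr, 172, 131 and 159 CPM in shOSGEP#1, and 153 and 157 CPM in the deep shOSGEP#2 libraries (96.7 CPM in the shallow one). Thus shCtr replicates 1 and 2 were far above every other library, while shCtr replicate 3 lay inside the range of the OSGEP-depleted libraries. Its log2 fold change was −1.26 (SE 0.35) in shOSGEP#1 and −1.33 (SE 0.40) in shOSGEP#2. Gclc varied less, from 86.3, 85.7 and 63.4 CPM in shCtr to 65.1, 61.4 and 65.3 CPM in shOSGEP#1 and 63.7 and 53.2 CPM in shOSGEP#2, and again shCtr replicate 3 overlapped the depleted groups. The log2 fold changes of Gclc were −0.31 (SE 0.16) and −0.52 (SE 0.18).

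Gsr encodes glutathione reductase, which returns oxidised glutathione to its reduced form with NADPH. It measured 286, 274 and 149 CPM in shCtr, 148, 129 and 118 CPM in shOSGEP#1, and 106 and 110.0 CPM in shOSGEP#2. Its lowest shCtr value, in replicate 3, was next to the highest OSGEP-depleted one, so the groups did not overlap but nearly touched. The log2 fold changes were −0.86 (SE 0.22) in shOSGEP#1 and −1.22 (SE 0.25) in shOSGEP#2.

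Txnrd1 (cytosolic thioredoxin reductase) and Srxn1 (sulfiredoxin, which repairs over-oxidised peroxiredoxins) are the members of the thioredoxin arm. Srxn1 had the widest gap within shCtr, with 1232 and 1143 CPM in replicates 1 and 2 and 240.5 CPM in replicate 3. The shOSGEP#1 libraries held 244, 181 and 211 CPM and the deep shOSGEP#2 libraries 246 and 226 CPM, so that shCtr replicate 3 could not be told from an OSGEP-depleted library by this gene. The mean of 872 ± 548 CPM in shCtr (SD, n = 3) against 212 ± 31.3 CPM in shOSGEP#1 (SD, n = 3) corresponded to a log2 fold change of −2.05 (SE 0.45), and shOSGEP#2 gave −1.97 (SE 0.52). Txnrd1 measured 1276, 1361 and 780.1 CPM in shCtr, 1071, 1105 and 742 CPM in shOSGEP#1, and 668 and 545 CPM in shOSGEP#2. In shOSGEP#1 it overlapped shCtr (log2 fold change −0.24, SE 0.23), and in shOSGEP#2 it lay below every shCtr library (−0.999, SE 0.26).

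Nqo1 encodes a quinone reductase and was near the limit of detection throughout. The shCtr libraries held 22, 31 and 5 counts of it, the shOSGEP#1 libraries 5, 7 and 3, and the deep shOSGEP#2 libraries 3 and 0. In CPM these were 0.545, 0.649 and 0.120, then 0.145, 0.139 and 0.0977, then 0.118 and 0, with shCtr replicate 3 among the depleted libraries again. Gsta4, a glutathione transferase that conjugates lipid aldehydes, was as scarce, with 33, 30 and 17 counts in shCtr, 4, 5 and 9 in shOSGEP#1, and 1 and 0 in shOSGEP#2. No OSGEP-depleted library reached the lowest shCtr library in CPM, and no fold is given for shOSGEP#2 for either gene at these counts. Both genes had over 10 counts in shCtr libraries only, and so passed the filter on low counts through the group where they were high. In shOSGEP#1 their log2 fold changes were −1.76 (SE 1.19) for Nqo1 and −1.88 (SE 1.05) for Gsta4.

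Gstm1, a mu-class glutathione transferase, measured 236, 154 and 103 CPM in shCtr, 111, 79.6 and 57.7 CPM in shOSGEP#1, and 80.5 and 99.3 CPM in shOSGEP#2. Replicate 1 of shCtr was the highest and replicate 3 the lowest of its group, and the latter lay below shOSGEP#1 replicate 1. The log2 fold changes were −1.001 (SE 0.29) in shOSGEP#1 and −0.96 (SE 0.33) in shOSGEP#2. Of the 31-base stretches of its transcripts, 28.8% also occur in other genes or pseudogenes, the largest part in Gstm2-ps1 and Gstm3, so its counts depend on how shared reads were divided.

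**Figure D1:**
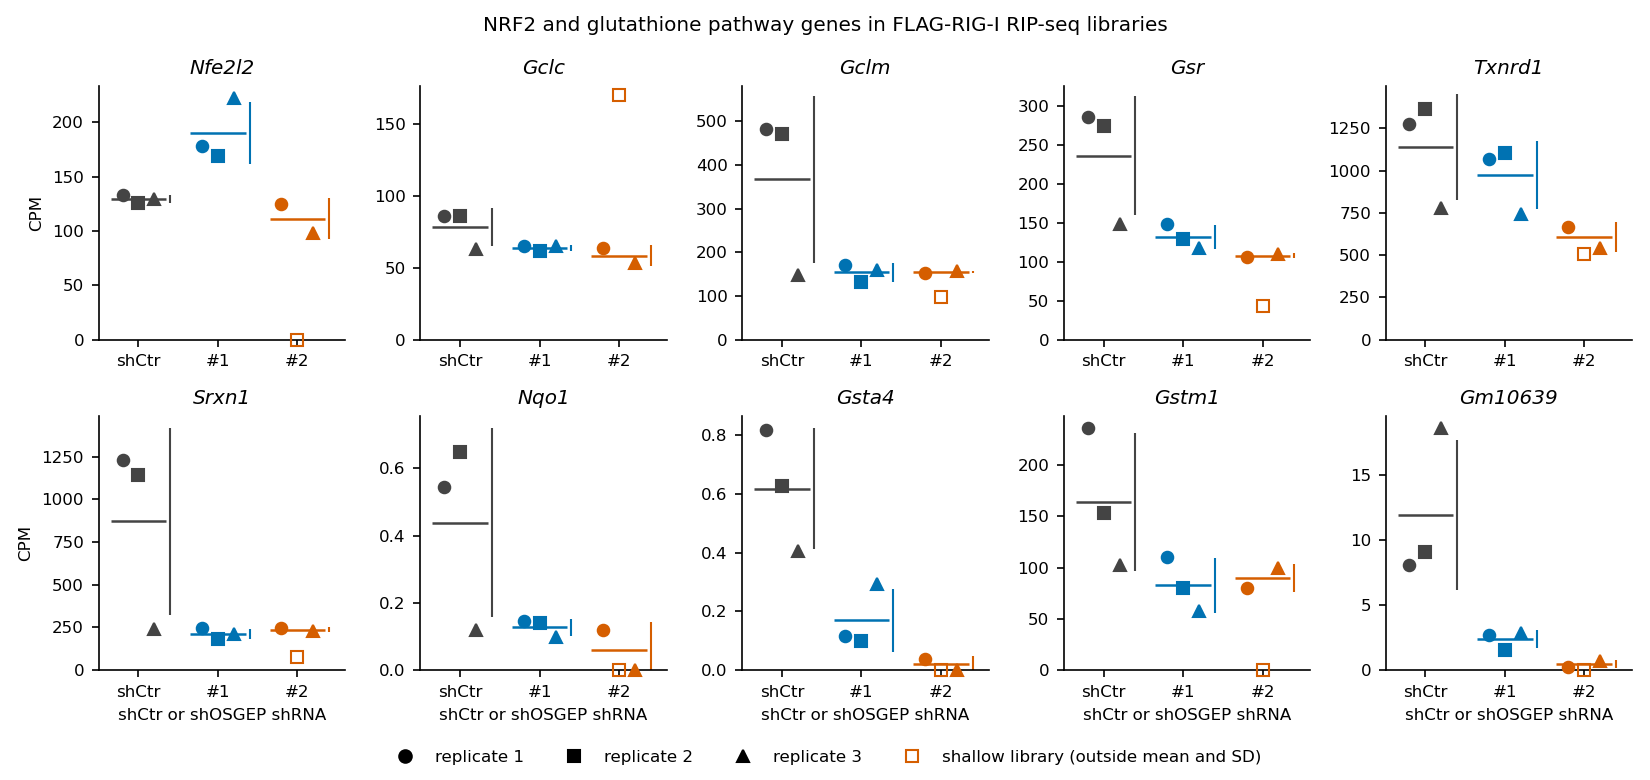
Level of each member in every library, in CPM on linear axes that start at 0, for shCtr, shOSGEP#1 (#1) and shOSGEP#2 (#2). Symbols mark replicates, short horizontal lines the group means and vertical lines 1 SD (cut at 0), both without the shallow shOSGEP#2 library, which is drawn hollow. For Gclm, Srxn1 and Nqo1 the triangle of shCtr replicate 3 sits at the height of the depleted libraries, while for Gm10639 it is the highest point at 18.5 CPM.

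Gm10639, a predicted gene of the alpha-class glutathione transferase cluster, showed the lowest depleted levels relative to shCtr among members with more than 3 counts in each deep library. It measured 8.06, 9.07 and 18.5 CPM in shCtr, 2.72, 1.55 and 2.87 CPM in shOSGEP#1, and 0.236 and 0.670 CPM in shOSGEP#2 (6 and 10 counts). The 3 groups did not overlap one another, and here shCtr replicate 3 was the highest library, not the lowest. The log2 fold change was −2.34 (SE 0.45) in shOSGEP#1 and −4.90 (SE 0.65) in shOSGEP#2, and −2.56 (SE 0.62) between the hairpins.

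Reads of Gm10639 are shared with its neighbours in sequence, since 62.2% of the 31-base stretches of its transcripts occur in other genes, above all in Gsta2 (47.8%) and Gm3776 (41.5%), and 92.9% of those of Gsta1 do. The 4 genes were therefore also added together, which does not depend on how reads were divided among them. Their sum was 77.2, 68.8 and 137 CPM in shCtr, 38.2, 27.2 and 40.6 CPM in shOSGEP#1, and 10.9 and 32.3 CPM in shOSGEP#2, with means of 94.5 ± 37.5 (SD, n = 3), 35.3 ± 7.15 (SD, n = 3) and 21.6 ± 15.1 CPM (SD, n = 2). No depleted library reached the lowest shCtr sum. Gm10639 made up 10.4% to 13.5% of that sum in shCtr, 5.71% to 7.12% in shOSGEP#1 and 2.08% to 2.17% in shOSGEP#2, so the part assigned to it was smaller in both depleted groups as well.

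**Figure D2:**
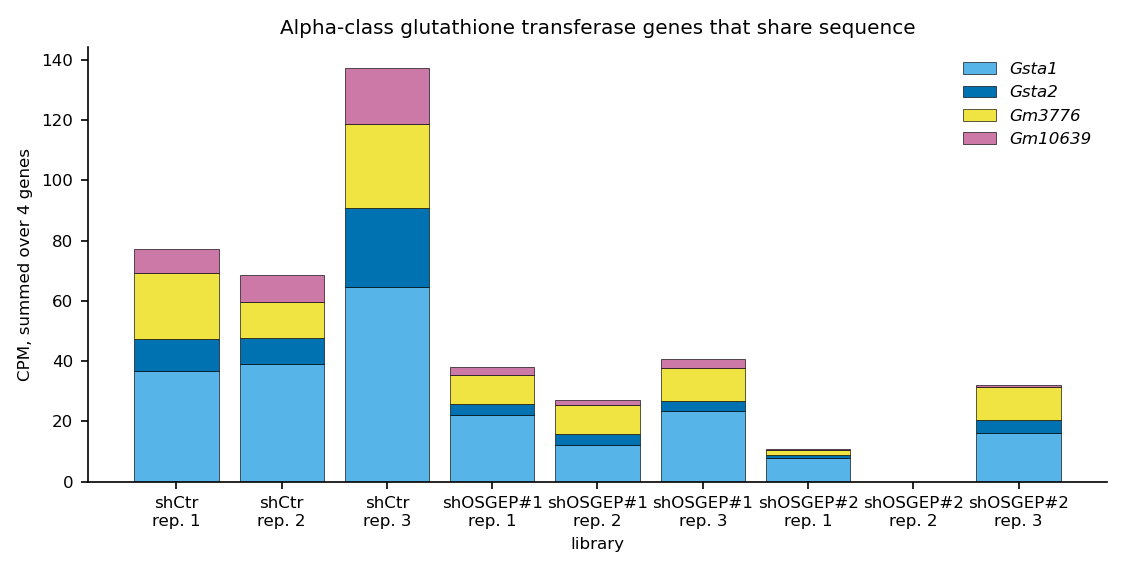
Stacked bars of the CPM of 4 alpha-class glutathione transferase genes that share sequence (Gsta1, Gsta2, Gm3776 and Gm10639) in each of the 9 libraries, with replicates of each shRNA side by side. The total is between 68.8 and 137 CPM in shCtr and at most 40.6 CPM in every OSGEP-depleted library, and the shallow shOSGEP#2 replicate 2 had no count of the 4 genes.

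Across the members, 9 of 10 fitted fold changes were below 0 in shOSGEP#1, as were 49.9% of 12744 genes tested (medians −1.13 and 0.00). In shOSGEP#2, 10 of 10 were, as were 53.4% of all genes (medians −1.28 and −0.06). Both tallies and medians include Nqo1 and Gsta4, which passed the low-count filter through shCtr, where they were high. Their direction therefore adds nothing. At an adjusted p under 0.01, 2 members passed in shOSGEP#1 (Gm10639 and Srxn1) and 2 in shOSGEP#2 (Gm10639 and Gsr), where 9.67% and 9.55% of all tested genes did, and between the hairpins Nfe2l2 passed, where 10.8% of all genes did. Since the members were chosen on these groups, nothing is read from these counts. With the shallow library in the fit, edgeR called 0 members and 0% of all genes in each comparison, although 4, 6 and 3 of the 9 members then tested had an unadjusted p under 0.05. DESeq2 on all 9 libraries called 0, 1 and 0 members, where it called 0.776%, 2.22% and 2.63% of all genes.

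**Figure D3:**
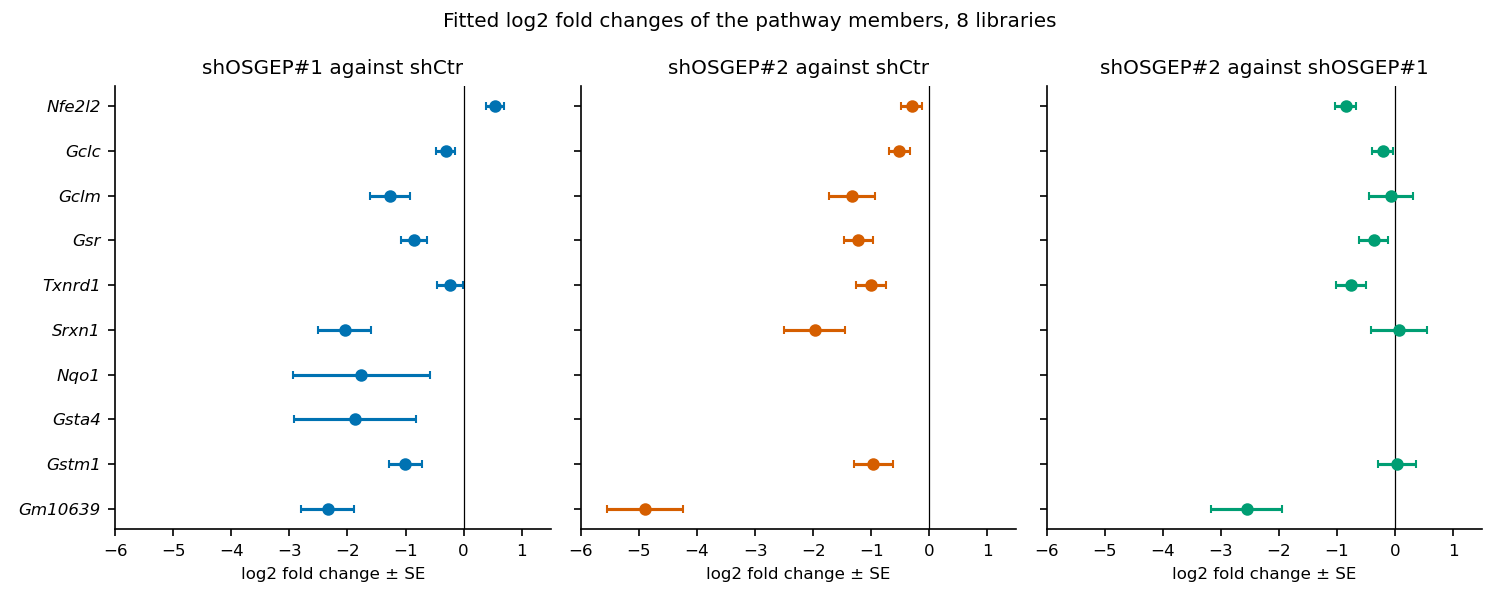
Fitted log2 fold change of each member (point) with its standard error (bar) from the 8 deep libraries, in 3 panels for shOSGEP#1 against shCtr, shOSGEP#2 against shCtr and shOSGEP#2 against shOSGEP#1. Nqo1 and Gsta4 are not drawn for shOSGEP#2, where they had 3 and 1 counts. Gm10639 lies farthest left, at −2.34, −4.90 and −2.56, and Nfe2l2 is to the right of 0 in the first panel only.

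The libraries labelled shCtr were not alike for these genes. Between shCtr replicates 1 and 2 the members differed by a median of 0.10 on the log2 scale, whereas replicate 3 lay below the mean of both by a median of 0.82 (−0.82). Replicate 3 was below both other shCtr libraries for 8 of the 10 members (not for Nfe2l2 and Gm10639), as it was for 60 of 94 other pathway genes tested (63.8%) and 39.5% of all genes. It was lower by more than 0.5 on the log2 scale for 7 of 10 members, for 26 of the 94 other pathway genes (27.7%) and for 11.2% of all genes, and higher by that much for 1 member (Gm10639), 12 of the 94 and 11.1% of all genes. The members were chosen on levels that include these libraries, so nothing is read from their counts here. Srxn1 was 4.89 times lower in replicate 3, Nqo1 4.20 times and Gclm 3.21 times. Among the NRF2 targets outside the members, Hmox1 (haem oxygenase 1) was 9.90 times lower and Slc7a11, the cystine importer that feeds glutathione synthesis, 6.10 times lower. For Nfe2l2 the log2 difference was 0.010, next to −0.083 between replicates 2 and 1.

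In sequencing depth shCtr replicate 3 resembled its group. It had 41805753 counts and 13523 detected genes against 40333037 and 47750758 counts and 13958 and 13632 genes in the other shCtr libraries. Its Osgep level was 15.5 CPM, where the other shCtr libraries had 19.1 and 19.9 CPM and no depleted library exceeded 3.76 CPM. Its summed melanocyte markers were the highest of all libraries, at 8473 CPM. The part of any of these in the result was not tested.

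Leaving shCtr replicate 3 out widened the fold changes of most of these genes: Srxn1 went to −2.49 in shOSGEP#1 and −2.42 in shOSGEP#2, Gclm to −1.64 and −1.71, and Gsr to −1.10 and −1.46, whereas Gm10639 narrowed to −1.86 and −4.40. The direction of these shifts was set by its level, lowest in shCtr for Srxn1, Gclm and Gsr and highest for Gm10639. Members past the threshold were then Gclm, Gsr and Srxn1 in shOSGEP#1, where 6.05% of all genes passed, and Gclm, Gm10639, Gsr, Srxn1 and Txnrd1 in shOSGEP#2, where 6.08% did. Leaving out shCtr replicate 1 left 0 members in shOSGEP#1 (3.38% of all genes) and Gm10639 in shOSGEP#2 (4.62%), and leaving out shCtr replicate 2 left 0 (2.52%) and Gm10639 (4.1%). In each of the fits without shCtr replicate 1 or 2, 6 of the 9 members tested had an unadjusted p under 0.05 in shOSGEP#1. Of the 6, 5 were lower and 1 higher, from which, as for the counts above, nothing is read.

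**Figure D4:**
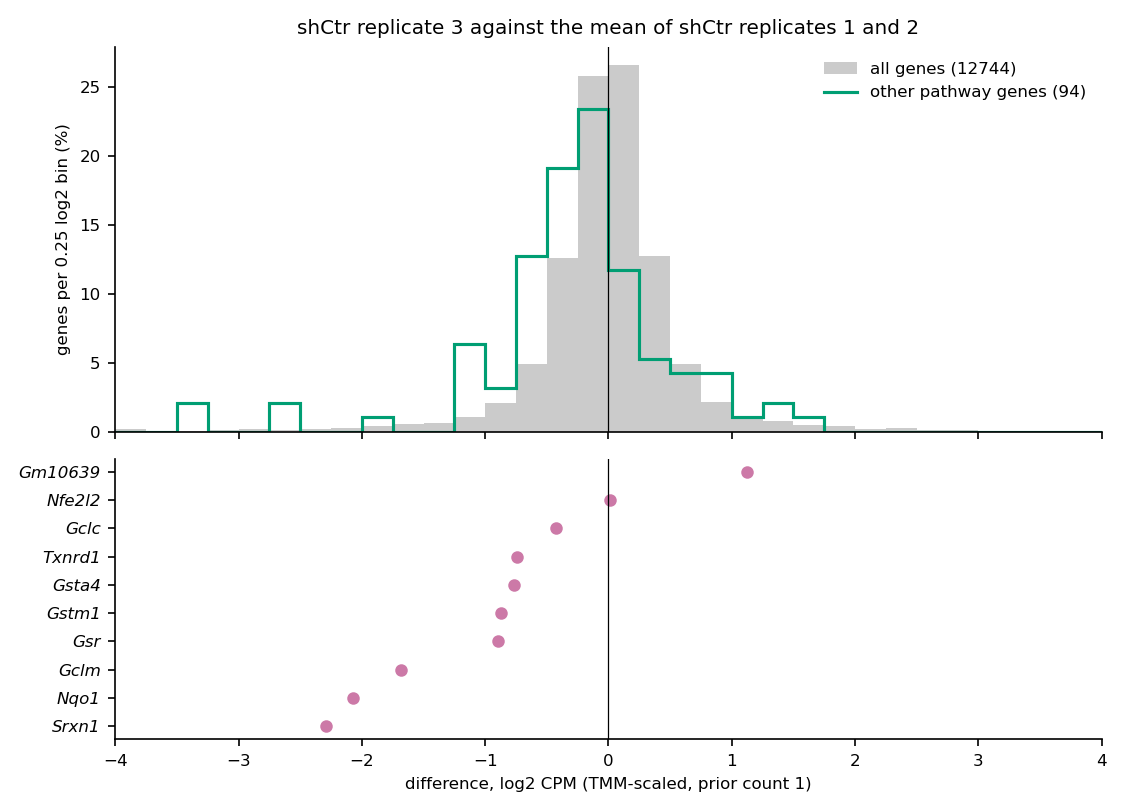
Difference between shCtr replicate 3 and the mean of shCtr replicates 1 and 2 on the log2 scale (TMM-scaled CPM with a prior count of 1), below 0 where replicate 3 is lower. The upper panel gives the percentage of genes in each bin for all 12744 tested genes (grey) and the 94 other pathway genes (green line), and the lower panel places the 10 members, from Srxn1 at −2.29 to Gm10639 at 1.13.

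Likeness between members is given as a description over the 8 deep libraries, which share the group differences above. Gclm and Srxn1 followed each other most closely (Pearson r of log2 CPM 0.99), and Gsr followed both (r = 0.94 with each). Gm10639 followed Gclm and Srxn1 less (both r = 0.52), and Nfe2l2 ran slightly against them (r = −0.14 with Gclm and −0.21 with Srxn1). Over all tested genes, the libraries of Gm10639 were most like those of Hist2h2be and Rpl5 (both r = 0.99), and then Rpl6, Rpl10a and Klhl30 (all r = 0.98). Those of Nqo1 were most like Decr1, Trappc8 and Acadvl (each r = 0.98), Gclc and Mocos (both r = 0.97).

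Beyond the members, 104 further genes of the same pathway were listed by role, and 94 of them had enough counts to be tested. In shOSGEP#1, 14 fell and 0 rose (14.9% of the 94 lower, against 4.67% of all genes lower and 5% higher). At an unadjusted p under 0.05, 34 were lower and 11 higher, where 2159 of all 12744 genes were lower and 2291 higher. DESeq2 on the same 8 libraries called 26 of 100 lower and 5 higher. Of all 15710 genes it called 1115 lower and 1304 higher (15.4% together). In shOSGEP#2, 8 fell and 3 rose, where 3.89% of all genes were lower and 5.66% higher. Between the hairpins, 8 were higher and 6 lower in shOSGEP#2, where 6.23% of all genes were higher and 4.56% lower. The median log2 fold change of the 94 was −0.25 in shOSGEP#1 and −0.37 in shOSGEP#2. Both comparisons use the same shCtr libraries. The counts past the threshold changed when single libraries were left out, as did the share of all genes called (9.67% and 9.55% with 8 libraries). Without shCtr replicate 1 they were 5 in shOSGEP#1 and 6 in shOSGEP#2, where 3.38% and 4.62% of all genes passed. Without shCtr replicate 2 they were 5 and 4 (2.52% and 4.1%), and without shCtr replicate 3 they were 19 and 12 (6.05% and 6.08%). Without each of the 8 libraries in turn, 5 of the 14 calls in shOSGEP#1 held (Akr1b3, Aldh3a2, Chac1, Ftl1 and Mgst1), as did 3 of 11 in shOSGEP#2 (Bach1, Osgin1 and Prdx1) and 4 of 14 between the hairpins (Aldh3a2, Chac1, Cth and Gstt1). With the shallow library in the fit, edgeR called 0 of the 94 in each comparison (8, 14 and 7 at an unadjusted p under 0.05), and DESeq2 called 0, 5 and 4 of 100.

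Among the 12 regulators tested, Bach1, the repressor that competes with NRF2 for its sites, fell in both groups. It measured 129, 141 and 120.3 CPM in shCtr, 83.9, 71.7 and 81.0 CPM in shOSGEP#1, and 55.3 and 52.1 CPM in shOSGEP#2, with no overlap between groups. Its log2 fold change was −0.74 (SE 0.14, adjusted p = 0.00384) and −1.37 (SE 0.16, adjusted p = 0.000288). Nfe2l1, the NRF2 relative that drives proteasome genes, rose in shOSGEP#2 (log2 fold change 1.32, SE 0.27, adjusted p = 0.0066) and gave −0.27 (SE 0.25, adjusted p = 0.478) in shOSGEP#1. Keap1 did not pass in either group, with −0.17 (SE 0.19, adjusted p = 0.570) and −0.46 (SE 0.22, adjusted p = 0.157).

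Of the 9 other genes of glutathione synthesis and turnover, Chac1, an enzyme that degrades glutathione and is known as a target of the stress factor ATF4, fell in shOSGEP#1 and did not pass in shOSGEP#2. It measured 148, 176 and 115 CPM in shCtr, 65.1, 68.9 and 55.0 CPM in shOSGEP#1, and 241 and 295 CPM in shOSGEP#2, with log2 fold changes of −1.23 (SE 0.18, adjusted p = 0.00111) and 0.77 (SE 0.19, adjusted p = 0.0157). Cth, which makes cysteine from cystathionine, rose in shOSGEP#2 (log2 fold change 1.54, SE 0.33, adjusted p = 0.00808) and gave −1.11 (SE 0.31, adjusted p = 0.0253) in shOSGEP#1. Slc7a11 measured 131, 116 and 20.0 CPM in shCtr, 26.0, 25.4 and 35.5 CPM in shOSGEP#1, and 22.0 and 25.9 CPM in shOSGEP#2, which is the pattern of Srxn1, and its fold changes of −1.63 (SE 0.50, adjusted p = 0.0386) and −1.98 (SE 0.59, adjusted p = 0.0350) did not pass. Gss, the enzyme of the second step of glutathione synthesis, gave −0.39 (SE 0.19, adjusted p = 0.182) and −0.54 (SE 0.22, adjusted p = 0.103). Of the 8 tested peroxidases and glutaredoxins edgeR called 0 in each comparison, where it called 9.67%, 9.55% and 10.8% of all genes. At an unadjusted p under 0.05 they numbered 1, 5 and 3. DESeq2 on 8 libraries called 1, 2 and 2 of 9, where it called 15.4%, 15.3% and 16.5% of all genes.

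Of the 21 other glutathione transferases tested, Mgst1, a membrane-bound transferase, fell in shOSGEP#1 (log2 fold change −2.19, SE 0.26, adjusted p = 0.000414) and gave −0.81 (SE 0.28, adjusted p = 0.0642) in shOSGEP#2. Gsta1 fell in shOSGEP#2 (−2.10, SE 0.39, adjusted p = 0.00402), although most of its sequence is shared. Gstt1 measured 3.50, 3.10 and 1.36 CPM in shCtr, at most 1.04 CPM in shOSGEP#1, and 13.8 and 22.1 CPM in shOSGEP#2, and it passed between the hairpins alone (4.92, SE 0.71, adjusted p = 0.000774). Gstp1, the most abundant transferase here, gave −1.10 (SE 0.28, adjusted p = 0.0186) and −0.88 (SE 0.32, adjusted p = 0.0752). Together with its near copy Gstp2, with which it shares 38.5% of its 31-base stretches, it summed to 3178, 3649 and 3406 CPM in shCtr, 1767, 1574 and 1688 CPM in shOSGEP#1, and 1262 and 2667 CPM in shOSGEP#2. Gstp2 itself passed in both groups and is named after its values were seen (−0.88, SE 0.15, adjusted p = 0.00296, and −0.95, SE 0.18, adjusted p = 0.00369). Of its 31-base stretches, 60.3% occur in other genes (54.8% in Gstp1), so its counts depend on how shared reads were divided.

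In the thioredoxin arm, Prdx1, a peroxiredoxin that removes hydrogen peroxide, fell in both groups. It measured 1472, 1259 and 962 CPM in shCtr, 781, 728 and 556 CPM in shOSGEP#1, and 395 and 403 CPM in shOSGEP#2, with log2 fold changes of −0.85 (SE 0.18, adjusted p = 0.00818) and −1.72 (SE 0.22, adjusted p = 0.000477). Prdx2 fell in shOSGEP#2 (−1.21, SE 0.17, adjusted p = 0.000945) and gave −0.19 (SE 0.15, adjusted p = 0.414) in shOSGEP#1. Txn1, thioredoxin itself, narrowly missed the threshold in shOSGEP#1 (−0.75, SE 0.17, adjusted p = 0.0104) and gave −0.61 (SE 0.19, adjusted p = 0.0461) in shOSGEP#2.

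Of 17 tested genes for quinone, carbonyl and haem handling, 5 fell in shOSGEP#1 and 1 in shOSGEP#2, where 4.67% and 3.89% of all genes were lower. The 5 included Blvrb (−2.31, SE 0.43, adjusted p = 0.00418), 3.58 times lower in shCtr replicate 3 than in the mean of replicates 1 and 2. The ferritin subunits Ftl1 (−1.53, SE 0.23, adjusted p = 0.00149) and Fth1 (−1.18, SE 0.23, adjusted p = 0.00488) were among the 5. The others were aldose reductase Akr1b3 (−1.25, SE 0.18, adjusted p = 0.00117) and fatty aldehyde dehydrogenase Aldh3a2 (−1.26, SE 0.16, adjusted p = 0.00057). Reads of Ftl1 are shared with pseudogenes over 57.7% of its 31-base stretches. Osgin1 fell in shOSGEP#2 (−2.99, SE 0.38, adjusted p = 0.000459). Hmox1 measured 1411, 1222 and 131 CPM in shCtr, 149.9, 62.4 and 129 CPM in shOSGEP#1, and 583 and 284 CPM in shOSGEP#2. It did not pass in either group (−3.03, SE 0.69, adjusted p = 0.0106, and −1.17, SE 0.74, adjusted p = 0.286), and shCtr replicate 3 again lay within the depleted libraries.

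Enzymes that supply NADPH fell where they passed. G6pdx, the entry step of the pentose phosphate pathway, measured 628, 561 and 348 CPM in shCtr, 294, 247 and 288 CPM in shOSGEP#1, and 253 CPM in each deep shOSGEP#2 library, and fell in both groups (−0.90, SE 0.20, adjusted p = 0.00967, and −1.11, SE 0.23, adjusted p = 0.00704). Pgd, a later step of that pathway, fell in shOSGEP#2 (−1.63, SE 0.29, adjusted p = 0.00304), and Me1, the cytosolic malic enzyme, fell in shOSGEP#1 (−1.13, SE 0.20, adjusted p = 0.00300). Pseudogenes share 30.0% of the 31-base stretches of Me1 and 15.2% of those of Prdx1. In all, 2 of 7 NADPH enzymes passed in each group, all of them lower, where 4.67% and 3.89% of all genes were lower. In edgeR's fit this count was 0 of 7 in both groups without shCtr replicate 1, where 3.38% and 4.62% of all genes passed. It was also 0 of 7 in both without shCtr replicate 2, where 2.52% and 4.1% of all genes did. In each of these fits, 5 and 7 of 7 had an unadjusted p under 0.05. Without shCtr replicate 3 the count was 4 and 3, where 6.05% and 6.08% of all genes passed. Fold changes were below 0 for 7 of 7 in shOSGEP#2, as they were for 53.4% of all genes. Among the remaining classes, the export pump Abcc2 fell in shOSGEP#1 (−4.49, SE 0.95, adjusted p = 0.00754), from 10.0 to 12.8 CPM in shCtr to at most 1.19 CPM. Catalase (Cat, named after its values were seen) fell in shOSGEP#1 (−0.88, SE 0.20, adjusted p = 0.00918), and the extracellular superoxide dismutase Sod3 rose in shOSGEP#2 (2.54, SE 0.50, adjusted p = 0.00507). In shOSGEP#2, melanocyte lineage markers fell beside these genes, 5 of 7 past the threshold, among them Pmel (−2.06, SE 0.28, adjusted p = 0.000592) and Dct (−1.997, SE 0.17, adjusted p = 0.000121), while in shOSGEP#1 1 of 7 did (Tyr, −2.59, SE 0.32, adjusted p = 0.00056). Their part in the fall of the pathway genes was not tested.

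**Figure D5:**
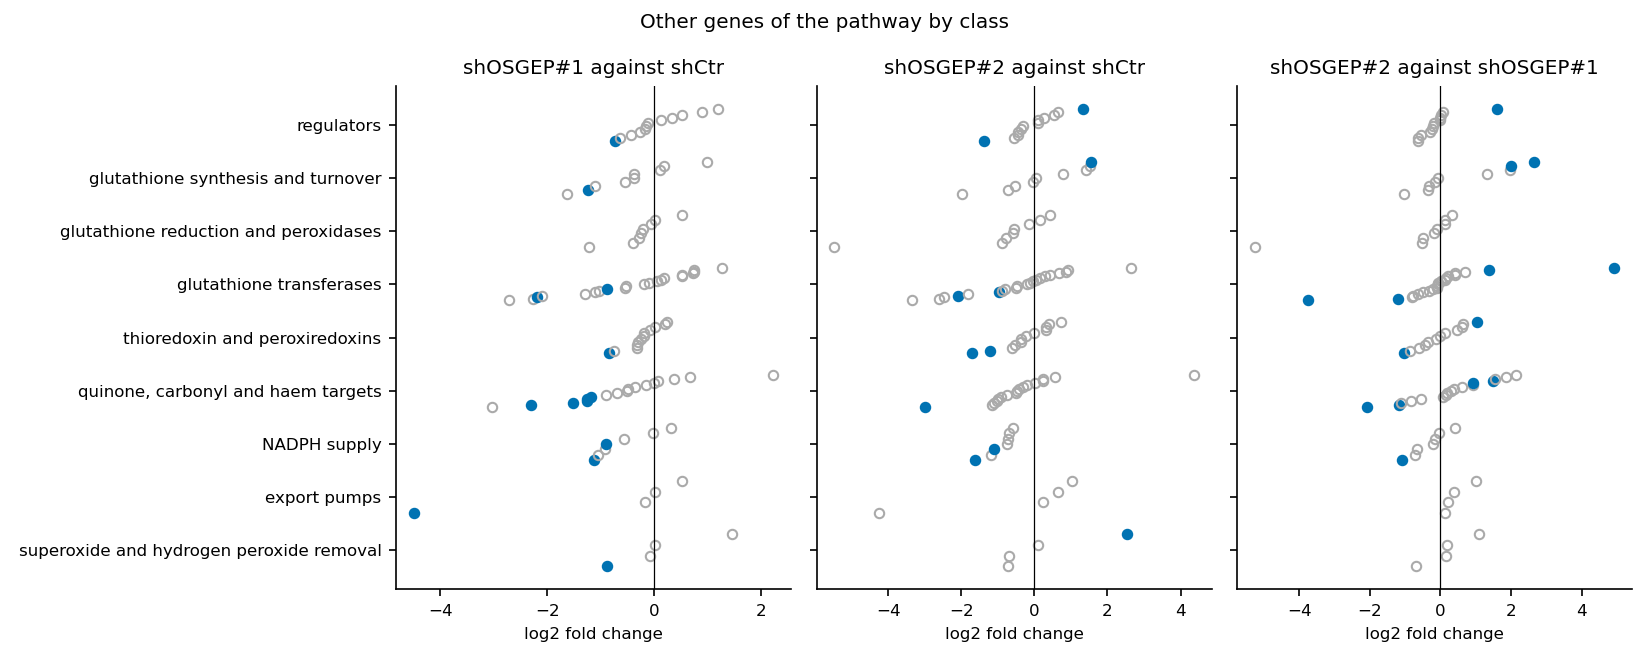
Fitted log2 fold changes of the 94 tested pathway genes outside the members, grouped by role on the vertical axis, in 3 panels for shOSGEP#1 against shCtr, shOSGEP#2 against shCtr and shOSGEP#2 against shOSGEP#1, on separate scales. Filled points passed an adjusted p under 0.01 and open points did not, and fitted values of genes with few counts in a group depend on the prior count. In the first panel all 14 filled points lie left of 0, in the second 8 of 11 do, and in the third 6 of 14 do.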

How the data were processed

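RNA bound to FLAG-RIG-I was depleted of ribosomal RNA and sequenced as paired-end reads. The authors trimmed reads with TrimGalore, aligned them with STAR to GRCm39 and quantified genes of Ensembl release 112 with Salmon. The values they deposited are counts, all whole numbers and not normalized, per library. All counts came from 1 table of 22396 genes, of which 22237 were paired with a symbol by Ensembl identifier (GENCODE M21, on GRCm38, also used for exonic lengths and shared 31-base stretches). RefSeq promoters are on GRCm38.p6.

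Groups and replicate numbers came from the sample labels. Counts were tested with edgeR 4.0.16 (R 4.3.3, quasi-likelihood, TMM, filterByExpr), with a coefficient for each group over 8 libraries. P-values were adjusted over the 12744 genes tested (Benjamini-Hochberg), and genes passed at under 0.01. The study's methods name that threshold for DESeq2 at its defaults. They mention no library left out. SE was obtained from the fold change and the F statistic. shOSGEP#2 replicate 2 was left out of the fit for its depth (568995 counts, where a floor of 3 counts is 5.27 CPM, against at most 0.201 CPM elsewhere). The fit was tested on simulated counts.

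The members and lists were chosen with earlier results of these data known. No p is given for a member. Named genes outside the members were up to 25 past the threshold in some comparison, by largest absolute fold change, besides Osgep, Keap1, Gss, Slc7a11, Hmox1, Gstp1, Txn1 and Prdx1, and the 5 genes most correlated with Gm10639 and with Nqo1. P-values measure the spread between these libraries.

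Alternatives were all 9 libraries, DESeq2 1.42.0, RLE or no scaling beyond library totals, a threshold of 0.05, no filter or one of 10 counts throughout, separate fits of each pair of groups, a replicate block, and leaving out each library.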

Additional observations from a re-analysis of the deposited data

Results flagged for a closer look

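For 14 pathway genes outside the members, the difference between the hairpins itself passed the test (edgeR, adjusted p under 0.01), and 4 of the 14 calls (Aldh3a2, Chac1, Cth and Gstt1) held without each library in turn. Values are log2 fold changes of shOSGEP#2 against shOSGEP#1. Nfe2l2 (−0.847) was past the same threshold, which is a description and supports nothing, since the members were chosen on these groups, and it was past it in 1 of the 8 fits that left out a library and not in the fit of only the groups compared. Higher with shOSGEP#2 were Gstt1 (4.92), Cth (2.65), Chac1 (2.00), Nfe2l1 (1.59), Aldh3a2 (1.51), Mgst1 (1.38), Txnip (1.05) and Akr1b3 (0.933). Of these, Gstt1, Cth, Chac1, Nfe2l1, Aldh3a2 and Txnip lay below shCtr in shOSGEP#1 and above it in shOSGEP#2 by their fitted values. None of them passed against shCtr in both groups. Chac1 and Aldh3a2 passed in shOSGEP#1 alone, Cth and Nfe2l1 in shOSGEP#2 alone, and Gstt1 and Txnip in neither. Lower with shOSGEP#2 were the prostaglandin D synthase Hpgds (−3.75), Osgin1 (−2.09), Gstk1 (−1.21), Ephx1 (−1.16), Tkt (−1.07) and Prdx2 (−1.02). With the shallow library in the fit, edgeR called 0 members and 0 of the other pathway genes between the hairpins (3 and 7 at an unadjusted p under 0.05), and DESeq2 called 0 and 4.

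In the shallow shOSGEP#2 replicate 2, which no comparison above uses, Gclc had 97 counts, or 170.476 CPM, above all 3 shCtr libraries (at most 86.3 CPM), where the other shOSGEP#2 libraries predicted 33.2 counts. In the same library Nfe2l2, Gstm1 and all 4 summed alpha-class genes had 0 counts.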

How the results depend on the processing

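Counts past the threshold are given as shOSGEP#1, shOSGEP#2 and between the hairpins. The other pathway genes numbered 14, 11 and 14 and the members 2, 2 and 1. All 9 libraries gave 0, 0 and 0 for both, with or without the replicate block, and DESeq2 on all 9 gave 0, 5 and 4, and 0, 1 and 0. Some settings called more genes throughout. DESeq2 on 8 libraries gave 31, 30 and 23, and 6, 4 and 2, where it called 15.4%, 15.3% and 16.5% of all genes; an adjusted p under 0.05 gave 37, 39 and 25, and 6, 5 and 2, where 2797, 2674 and 2952 of 12744 genes passed; no filter gave 28, 22 and 17, and 5, 5 and 2, where 11.1%, 10.2% and 11.5% did. A fit of only the groups compared gave 16, 8 and 9, and 1, 1 and 0, and at least 10 counts in every library gave 1 member in each comparison. RLE and library totals kept every count within 1.5 times. Leaving out each library in turn gave 5 to 19, 4 to 14 and 7 to 17 other pathway genes, and 0 to 3, 1 to 5 and 0 to 1 members. Counts of other pathway genes moved by over 1.5 times in shOSGEP#1 without shCtr replicate 1 (5), shCtr replicate 2 (5), shOSGEP#1 replicate 2 (5) or shOSGEP#1 replicate 3 (8), in shOSGEP#2 without shCtr replicate 1 (6), shCtr replicate 2 (4) or shOSGEP#2 replicate 1 (5), and between the hairpins without shOSGEP#2 replicate 1 (9) or 3 (7). For shOSGEP#1, the share of all genes called in these fits was 3.38%, 2.52%, 3.4% and 5.72%, in the order given. For shOSGEP#2 without shCtr replicate 1 or 2 it was 4.62% and 4.1%. Each such fit had fewer libraries, and the cause of the other changes was not tested. The replicate block on 8 libraries gave 17, 18 and 15 other pathway genes and 1, 3 and 2 members. Replicate numbers were not taken as pairs, because same-numbered libraries did not deviate together throughout (correlations of deviations −0.00889, 0.0399 and 0.0812 for shCtr and shOSGEP#1, 0.168 and 0.150 for shCtr and shOSGEP#2, and −0.0143 and 0.0939 for the hairpins, the last 4 over a group of 2 libraries). With that block and all 9 libraries, Akr1b3 between the hairpins turned from 0.933 to −0.0254. Among the members and the genes named by rule, no other difference past the threshold changed sign. Outside the members this covers the fits that gave an adjusted p, and Gstp2 and Cat were not checked. Where a fit kept a single shOSGEP#2 library, that library was assumed to vary like the other groups. Depth limits Nqo1 and Gsta4, with at most 33 counts in a library.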
